A study of Mustela putorius furo and Mus musculus with 4 samples.

Results

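The cells described here are ferret cortical cells that carry marker transcripts of layer 6 neurons. They were chosen by a rule on single genes in the table of ferret cells at embryonic day 39 (E39). A cell with at least 750 detected genes was taken if it had a unique molecular identifier (UMI, 1 counted transcript) of at least 3 of the 6 genes *NTS*, *ZFPM2*, *TLE4*, *FOXP2*, *HS3ST4* and *CDH18*. A cell with any UMI of *EOMES*, *LHX6* or *ADARB2*, which mark intermediate progenitors and interneurons, was left out. Of 23241 ferret cells with at least 750 genes, 752 met the rule (3.24%, exact Clopper-Pearson 95% interval 3.01 to 3.47%). They are called layer 6 marker cells below. All ferret cells deposited number 23482, and all cells of the series, ferret and mouse, number 41602.

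The series holds wild type ferret cortex at E39 and mouse cortex at E18.0, from 1 wild type and 1 *Smo* CKO sample of cells sorted for an injected dye. The ferret cells came from the bilateral cortex of 1 embryo, were dissociated with papain and were run on the 10× droplet platform, with no sort described. The labels list 2 ferret samples, and the barcodes fall into 2 sets that name no sample. Values are therefore given for barcode set 1 and barcode set 2. Since both sets are from 1 embryo and cells are not replicates, no test was made and no p-value is given. All intervals cover counting error only, and with a 3′ UMI assay no level of a gene is compared with that of another gene.

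Layer 6 is the deepest layer of the cortical plate, and many of its pyramidal neurons, which are born early, send axons to the thalamus. These corticothalamic neurons are known for *TLE4*, a Groucho corepressor, *FOXP2*, a forkhead transcription factor, and *ZFPM2* (FOG2), a zinc finger cofactor that is expressed in them. *FEZF2* and *BCL11B* (CTIP2) direct the neighbouring layer 5 neurons towards subcortical targets, whereas *CUX2* marks neurons of upper layers.

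The barcode sets differed in depth and in how many layer 6 marker cells they held. Set 1 had 30574227 UMIs (median 2555 per cell) and set 2 had 56361053 (median 3514 per cell). Layer 6 marker cells made 252 of 10187 cells in set 1 (2.47%, 2.18 to 2.79%) and 500 of 13054 in set 2 (3.83%, 3.51 to 4.17%). Their median depth was 3296 UMIs in set 1 and 5020 in set 2. In both sets the share of cells that met the rule was highest at 8000 or more UMIs (15.6% in set 1 and 8.86% in set 2). The sets share 38 barcodes, none of which belongs to a layer 6 marker cell. Doublets were not removed.

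By the choice of the rule, most of the cells were picked by the same genes. *ZFPM2*, *TLE4* and *FOXP2* alone selected 326 of the 752 cells (43.4%). The next combinations were these 3 genes with *HS3ST4* (82 cells), *ZFPM2* and *TLE4* with *HS3ST4* (59 cells) and *ZFPM2* and *TLE4* with *CDH18* (55 cells). *NTS*, *ZFPM2* and *TLE4* selected 33 cells, and 10 cells had all 6 genes. Just inside the threshold, the 512 cells with exactly 3 genes had *TLE4* in 98.4%, *ZFPM2* in 93.8%, *FOXP2* in 68.6% and *NTS* in 10.2% of cells. Just outside it, the 1539 cells with exactly 2 genes had *TLE4* in 86.9%, *ZFPM2* in 65.9%, *FOXP2* in 29.5% and *NTS* in 8.3%. A further 94 cells had at least 3 of the genes and were barred, 50 of them by *EOMES*, 40 by *ADARB2* and 8 by *LHX6*.

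Not all of the 752 cells looked like neurons on other markers. At least 2 of 6 vascular and mesenchymal markers were found in 35 of them (4.65%, 3.26 to 6.41%), against 21 of 11477 other excitatory neurons (0.183%). At least 5 of 9 radial glia (RG) markers or 3 of 6 cycling markers were found in 61 others (8.11%, 6.26 to 10.3%), against 1.41% of the other excitatory neurons. The other excitatory neurons are cells outside the rule with a UMI of at least 2 of *NEUROD2*, *NEUROD6*, *SLC17A6* and *SLC17A7* and none of the 3 barred genes. The remaining 656 cells (87.2%, 211 in set 1 and 445 in set 2) are called neuronal layer 6 marker cells. In them, 3 of the 6 vascular genes were at 0 and the summed level of the list was 5.86 CPM (UMIs of a gene or list per 1000000 UMIs of the same cells), against 12.2 in all other excitatory neurons and 5.62 in the 11294 of them that remain after the same removal of vascular, RG and cycling marker cells (neuronal other excitatory neurons). At least 2 of the 4 excitatory genes were seen in 411 of the 656 (median 5345 UMIs), and the other 245 had a median of 2050 UMIs. None of the 4 was seen in 76 cells. The name neuronal thus rests on the absence of vascular, RG and cycling markers. At least 2 of 6 interneuron genes were seen in 6 of the 752 cells.

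A set of cells poor in ribosomal protein transcripts was nearly all in barcode set 2. UMIs of 88 ribosomal protein genes made under 7% of all UMIs in 4 of 211 neuronal layer 6 marker cells of set 1 (1.90%) and in 138 of 445 of set 2 (31.0%, 26.7 to 35.5%). In the neuronal other excitatory neurons of set 2 the share of such cells was 1.91%. The 138 cells had a median of 3.51% ribosomal protein UMIs and 1652.5 UMIs in all, while the other 307 of set 2 had 13.1% and 5783 UMIs. All neuronal layer 6 marker cells made 2.07% of the cells of set 1 (1.80 to 2.37%) and 3.41% of set 2 (3.10 to 3.73%). Without those under 7% ribosomal protein UMIs they made 2.03% of set 1 (1.77 to 2.33%) and 2.35% of set 2 (2.10 to 2.63%), over the same total of cells. The share of neuronal layer 6 marker cells in set 2 thus moved with the ribosome-poor cells, whose part in other results was not tested beyond leaving them out. Ratios for the 514 cells of at least 7% are given beside the others where they differ. Of the 307 such cells in set 2, 42 had under 2 excitatory genes at a median of 4779 UMIs, so not all cells without these genes were shallow.

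**Figure D1:**
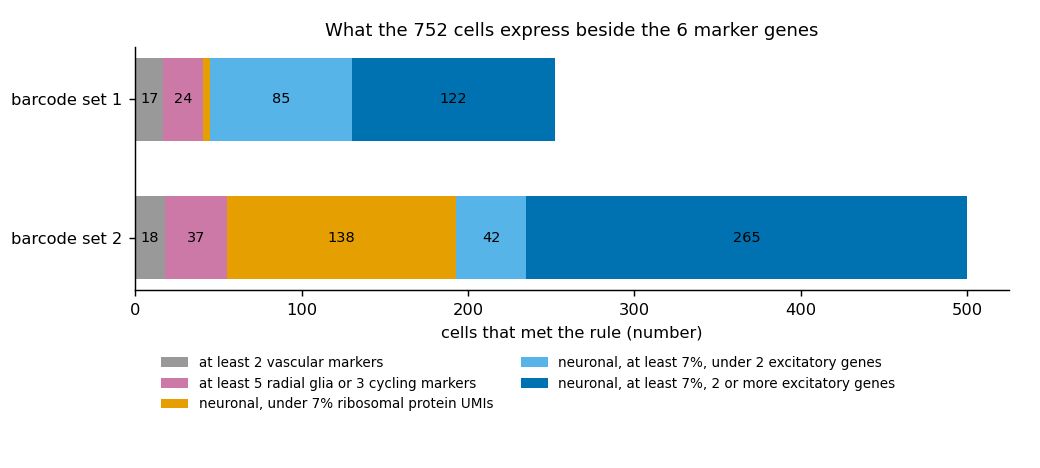
Layer 6 marker cells of each barcode set by class, as numbers of cells along the horizontal axis, 1 stacked bar for each set. Set 1 held 4 and set 2 held 138 neuronal cells under 7% ribosomal protein UMIs, and the largest class in both was neuronal cells of at least 7% ribosomal protein UMIs with 2 or more excitatory genes (122 and 265).

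Each of the 6 genes was then asked for without its own help. For each gene, neuronal cells with at least 3 of the other 5 were compared with the neuronal excitatory cells that did not meet that rule, so that its own detection did not choose the cells. *ZFPM2* stood at 739 CPM in set 1 and 1795 CPM in set 2, against 45.9 and 93.6 CPM in the other cells, a ratio of 20.2 (exact conditional 95% interval 19.1 to 21.4) in 257 cells. *TLE4* stood at 1912 and 1936 CPM against 194 and 200 CPM, 9.77-fold higher (9.31 to 10.3). *FOXP2* stood at 231 and 248 CPM against 30.9 and 20.2 CPM, 10.3-fold higher (9.17 to 11.5). All 3 transcription regulators were higher in both sets in cells that the others had picked. The 6 genes were listed together with earlier results of these data known, so these ratios describe the list and are no independent support for it.

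*HS3ST4*, a heparan sulfate 3-O-sulfotransferase, stood at 69.6 and 107 CPM in sets 1 and 2 against 4.71 and 2.75 CPM, 28.6-fold higher (23.4 to 35.1). *CDH18*, a classical cadherin, stood at 91.3 and 197 CPM against 4.06 and 3.88 CPM, 43.4-fold higher (36.5 to 51.8). *NTS*, the precursor of the neuropeptide neurotensin, was the least even between sets, with 247 CPM against 49.3 in set 1 (5.002-fold) and 1250 CPM against 36.0 in set 2 (34.8-fold). Without the ribosome-poor cells the ratios were 19.1 for *ZFPM2*, 9.59 for *TLE4*, 8.49 for *FOXP2*, 21.2 for *HS3ST4*, 37.5 for *CDH18* and 23.6 for *NTS*.

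The same genes went together one pair at a time in all 11705 neuronal excitatory cells, where no combination had been required. This too describes the list that was chosen. With every cell thinned to 1500 UMIs, *ZFPM2* was expected in 52.5% of the cells with *HS3ST4* and in 6.10% of those without it. *CDH18* was expected in 11.7% of the cells with *NTS* and in 0.696% of those without. For *FOXP2* the shares with and without *NTS* were 5.75% and 3.23%.

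**Figure D2:**
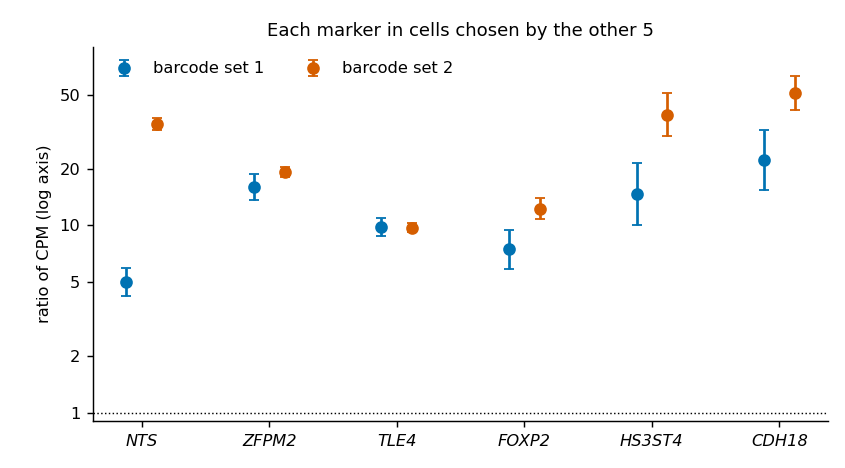
Ratio of CPM (log axis) of each of the 6 genes between neuronal cells with at least 3 of the other 5 and the neuronal excitatory cells that did not meet that rule, by barcode set, with exact 95% counting intervals. Every ratio lies above 1 in both sets, from 5.002 (*NTS*, set 1) to 50.7 (*CDH18*, set 2).

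Layer 6 marker cells also lay near each other on genes that the rule did not use. In 30 principal components of the 2000 most variable genes without the 9 genes of the rule, 46.2% of the 15 nearest neighbours of a layer 6 marker cell were layer 6 marker cells, against 3.24% of all cells. For the neuronal cells the share was 51.0%, and for those of at least 7% ribosomal protein UMIs it was 47.1%. Of the neighbours of the vascular-marker cells 24.0% met the rule but 1.14% were neuronal layer 6 marker cells, and of those of the RG or cycling marker cells 7.21% met the rule and 1.31% were neuronal. Neuronal excitatory cells with exactly 2 of the 6 genes, just outside the rule, had layer 6 marker cells as 10.3% of their neighbours, against 39.9% at 3, 67.2% at 4 and 72.2% at 5 or 6. Neighbours came mostly from the same barcode set (83.0% in set 1 and 92.7% in set 2), and with each set taken alone the share over all layer 6 marker cells was 32.9% and 51.6%.

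Against the 11477 other excitatory neurons, all 752 cells were led by genes of vessels. The 12 named genes with the largest ratios included *FN1* (fibronectin), the endothelial tight junction gene *CLDN5*, *SPARC* and *LAMA4*. *FN1* stood at 699.9 CPM in set 1 and 279.7 CPM in set 2 in all layer 6 marker cells, but at 2.58 and 3.04 CPM in the neuronal ones, beside 12.5 and 6.46 CPM in all other excitatory neurons and 3.56 and 2.34 CPM in the neuronal ones among them. Of 12663 genes with at least 100 UMIs, 1290 (10.2%) were at least 2-fold higher and 193 (1.52%) at least 2-fold lower in all 752 cells, and 925 (7.3%) and 96 (0.758%) were so in both barcode sets. Of the 653 genes that were 2-fold higher only with all 752 cells included, 646 were 2-fold higher in all vascular-marker cells or all RG or cycling marker cells as well. The share of all 12663 genes that were higher in those cells was not counted, so nothing is read from this number. Because genes of vessels led among all 752 cells, the values that follow are for the 656 neuronal cells against 11294 neuronal other excitatory neurons.

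In the neuronal comparison 804 of 12391 genes (6.49%) were at least 2-fold higher and 327 (2.64%) at least 2-fold lower. Both barcode sets were past 2-fold the same way for 455 (3.67%) and 149 (1.2%). Without ribosome-poor cells 650 of 12345 genes (5.27%) were higher and 342 (2.77%) lower, 411 (3.33%) and 144 (1.17%) of them in both sets. Of the 804 higher genes 623 were among these, and of the 327 lower genes 295. The median gene had a log2 ratio of 0.09, and of 0.05 without the ribosome-poor cells. The interval of a ratio is given for the genes described in full, and none of these genes was used by the rule.

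The named genes that were higher had mixed roles, and those of signalling proteins are given first. *RGS6*, a regulator of G protein signalling, stood at 132 CPM in set 1 and 177 CPM in set 2, against 13.7 and 8.21 CPM in the other excitatory neurons, and was 16.5-fold higher (14.5 to 18.7). *GUCY1A1*, a subunit of the nitric oxide receptor guanylate cyclase, stood at 107 and 154 CPM against 8.10 and 14.4 CPM, 11.6-fold higher (10.2 to 13.2). Its partner subunit *GUCY1B1* was 8.29-fold higher (7.47 to 9.20), so both subunits of the enzyme were higher in both sets. *NCALD*, a neuronal calcium sensor, was 8.81-fold higher (7.84 to 9.88).

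The other named genes ranged from enzymes and surface proteins to a chromatin protein. *MGAT4C*, a glycosyltransferase gene, stood at 271 and 713 CPM against 35.3 and 78.8 CPM, a ratio of 9.40 (8.87 to 9.97), with a UMI in 70.7% of the cells against 11.5%, and in 7.95% of 1320 cells with at least 2 of 6 interneuron genes (interneuron marker cells, median 2751 UMIs). *ADAMTSL1*, which encodes a secreted ADAMTS-like protein, stood at 69.8 and 191 CPM against 8.55 and 12.8 CPM (14.2-fold, 12.5 to 16.1). *MDGA2*, a membrane protein that binds neuroligins, was 8.24-fold higher, the protocadherin *PCDH15* 11.5-fold, the dystrophin relative *UTRN* 9.41-fold and the GTPase-activating *ARHGAP6* 12.05-fold. *SATB1*, a chromatin organizer, stood at 247 and 240 CPM against 32.9 and 27.9 CPM (8.16-fold, 7.45 to 8.93). *SESN3*, a stress-responsive sestrin, was 9.04-fold higher. Without ribosome-poor cells the ratios of these genes ran from 7.12 (*MDGA2*) to 13.6 (*RGS6*), and 10 of the 12 highest were again among the top 12, joined by *GUCY1B1* and *RPRML* (31.3-fold).

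*RGS6* and *MGAT4C* stood higher in ribosome-poor cells, inside and outside the rule. In set 2, *RGS6* stood at 534 CPM in the ribosome-poor neuronal layer 6 marker cells and at 86.8 CPM in the ribosome-poor other excitatory neurons, against 132 CPM in the layer 6 marker cells of at least 7%. *MGAT4C* stood at 1540, 517 and 607 CPM in the same 3 groups. *EPHA3* was low in both, at 142 CPM in the ribosome-poor layer 6 marker cells and 286 CPM in the others of set 2.

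The named genes that were lower included a pair of guidance genes and an upper layer gene. *EPHA3*, an ephrin receptor, stood at 327 CPM in set 1 and 270 CPM in set 2 against 960 and 1028 CPM, a ratio of 0.28 (0.26 to 0.30), and was seen in 34.1% of the cells against 83.7%. *SEMA3C*, a secreted semaphorin, stood at 38.8 and 43.5 CPM against 184 and 192 CPM (0.22, 0.19 to 0.27). *CUX2*, the upper layer homeobox gene, stood at 77.5 and 63.9 CPM against 245 and 266 CPM (0.26, 0.22 to 0.30). Both sets were on the same side and at nearly the same level for each of the 3 genes.

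*SLC17A6*, the vesicular glutamate transporter VGLUT2, stood at 40.0 and 23.0 CPM against 141 and 102 CPM (0.24, 0.19 to 0.29). It is one of the 4 genes that chose the comparison cells, which favours it there. Among cells chosen with those same 4 genes on both sides its log2 ratio was -1.69, against -2.14 for all 752 cells. *SLC17A7* (VGLUT1) did not share this and was 1.87-fold higher (1.53 to 2.27) in the neuronal cells. The remaining named lower genes were *PHLDA1*, *TNFAIP8*, *CCSER1*, *CA10*, *ZMAT4*, *PID1*, the progenitor transcription factor *INSM1* and *ENC1*, with ratios from 0.20 (*ZMAT4*) to 0.32 (*ENC1*). Of these 12 genes, 11 were again named without the ribosome-poor cells.

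**Figure D3:**
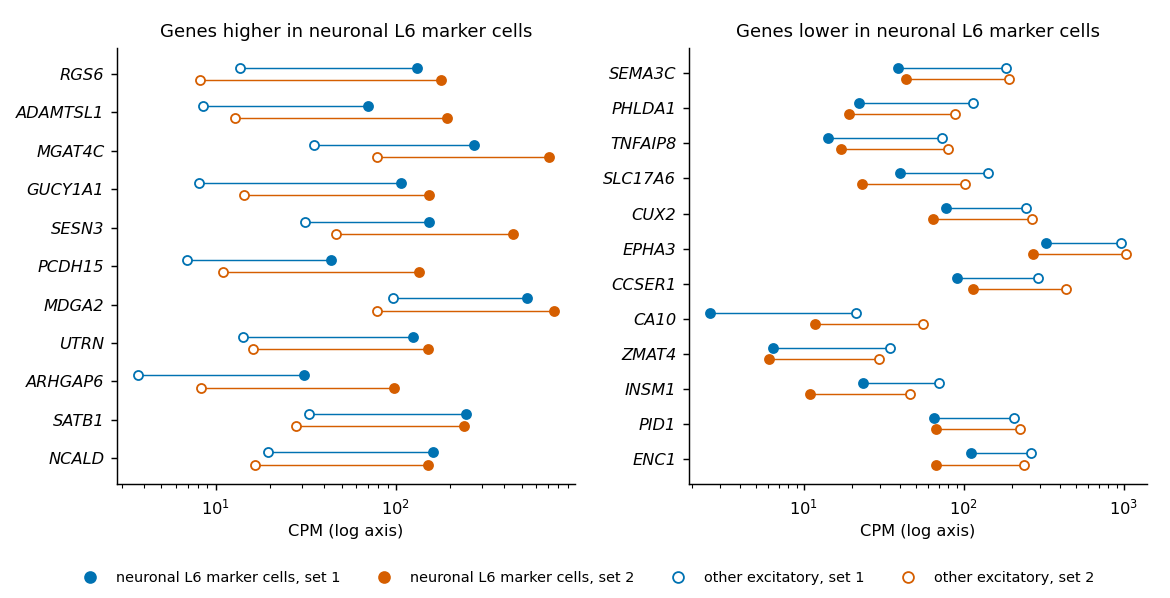
CPM (log axes) of 11 named genes that were higher (left) and 12 that were lower (right) in neuronal layer 6 marker cells (filled points) than in neuronal other excitatory neurons (open points), with 1 joined pair for each barcode set. The pairs of both sets lie beyond 2-fold for each gene, as the naming rule required, and *RGS6* in the left panel was 9.64-fold higher in set 1 and 21.6-fold in set 2.

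Layer identity genes that the rule did not use were counted by list. Some genes are on more than 1 list, such as *FEZF2* (layer 6 and layer 5) and *UNC5D* (upper layer, guidance and young neuron). The counts of different lists are therefore not separate. Of 16 further layer 6 genes, 12 had at least 100 UMIs. Of these 5 were at least 2-fold higher and none was 2-fold lower, beside 6.49% and 2.64% of all genes. The median log2 ratio was 0.71, against 0.09 for all genes. *SOX5*, a repressor needed for the order of deep layer neurons, stood at 1013 and 1490 CPM against 548 and 592 CPM, 2.37-fold higher (2.30 to 2.45), but was 1.85-fold in set 1. *CRYM*, a thyroid hormone binding protein, was 4.14-fold higher (3.44 to 4.96), the kainate receptor *GRIK3* 5.20-fold and the semaphorin *SEMA3E* 2.44-fold. *FEZF2* stood at 99.5 and 248 CPM against 20.6 and 68.99 CPM, 4.01-fold higher (3.67 to 4.38). The 5 genes had their ratios on the same side of 1 in both sets.

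Other layer 6 genes gave less. *TBR1*, a T-box factor of layer 6, had a ratio of 1.599 (1.33 to 1.91), *NFIA* of 1.66, *NFIB* of 1.34 and *BCL11A* of 0.73. *SYT6* was found in 17 UMIs, 10.9-fold higher (5.47 to 21.3) but under the limit of 100 UMIs. *NTSR1*, a receptor of neurotensin that marks adult layer 6 corticothalamic cells in mice, had 7 UMIs in the 656 cells and a ratio of 0.57 (0.23 to 1.19), so no difference in it was detectable at this depth. *MDFIC* had 0 UMIs.

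Upper layer genes were mostly lower and layer 5 genes mixed. Of 12 upper layer genes measured, 7 were at least 2-fold lower and 1 higher, beside 2.64% and 6.49% of all genes, with a median log2 ratio of -1.05. *BCL6* had a ratio of 0.30, *POU3F2* of 0.40, *INHBA* of 0.37, *LHX2* of 0.45 and *UNC5D* of 0.49, whereas *PLXND1*, a semaphorin receptor, was 2.81-fold higher. Of 12 layer 5 genes, 4 were higher and 1 lower, beside the same 6.49% and 2.64%, with a median of 0.51. *FEZF2* is 1 of these 4 and was also counted with the layer 6 genes. *BCL11B* stood at 110 and 173 CPM against 25.4 and 55.8 CPM (3.45-fold, 3.12 to 3.81), *LDB2* was 3.77-fold higher and *TSHZ2* 2.62-fold, while *POU3F1*, a gene of layer 5 subcerebral neurons, had a ratio of 0.33.

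Detection of several of these genes, though not all, followed the number of the 6 genes found in a cell. In neuronal excitatory cells thinned to 1500 UMIs, *SOX5* was expected in 48.9% of the 6306 cells with none of the 6 genes and in 81.4% of the 48 cells with 5 or 6. *FEZF2* went from 2.15% to 30.3% and *BCL11B* from 4.31% to 24.2% between the same cells. *CUX2* went from 32.6% to 7.12% and *SLC17A6* from 19.5% to 0.690%. Cells with 1 gene lay near those with none (*SOX5* 53.6%, *CUX2* 32.7%), and cells with exactly 2, which the rule left out, lay between (*SOX5* 59.5%, *CUX2* 19.5%, *FEZF2* 16.9%). *SEMA3E* and *TBR1* did not follow the number, with 2.37% and 4.21% at none, 7.84% and 7.57% at 3, and 2.90% and 6.39% at 5 or 6 of the genes. *RORB*, an upper layer gene, lay between 12.96% and 14.6% up to 4 genes and at 7.57% at 5 or 6. *MGAT4C*, which was named from the cells with 3 or more, stood at 20.4% in the cells with 2, against 3.36% in those with none.

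**Figure D4:**
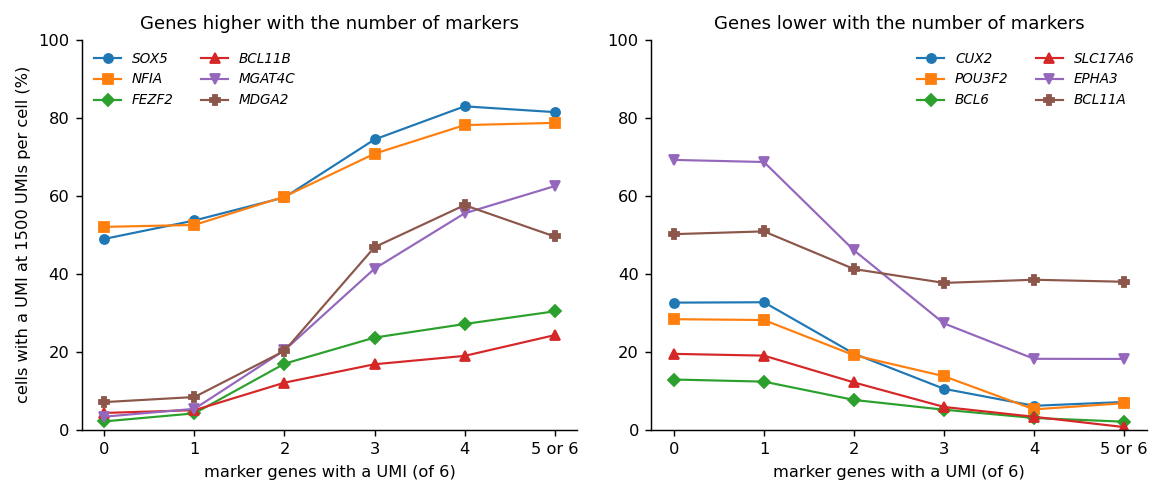
Expected share of neuronal excitatory cells with a UMI at 1500 UMIs per cell (vertical axis, percent) by the number of the 6 layer 6 genes detected (horizontal axis). Genes with higher shares in cells with more of the 6 are on the left and genes with lower shares on the right, where lines join the points of a gene. *SOX5* goes from 48.9% to 81.4% and *CUX2* from 32.6% to 7.12% between cells with 0 and with 5 or 6 of the genes.

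Layer 6 marker cells differed from *FEZF2* *RSPO3* cells, the other deep layer cells looked at. These 409 cells had a UMI of both *FEZF2* and *RSPO3*, no UMI of a barred gene, did not meet the layer 6 rule and were deeper (median 8510 UMIs). *FEZF2* and *RSPO3*, which chose the comparison cells, had ratios of 0.61 and 0.12 in the neuronal layer 6 marker cells against them. *RGS6* was 48.6-fold higher and *SEMA3E* 6.09-fold, while *POU3F1* had a ratio of 0.13. *BCL11B* (0.65) and *CRYM* (0.81), higher than in other excitatory neurons at large, were thus not higher than in these cells. Upper layer genes summed to 1026 CPM in these cells, 1352 CPM in the neuronal layer 6 marker cells and 2840 CPM in the neuronal other excitatory neurons. Their low level was thus not particular to the layer 6 marker cells. Layer 6 genes outside the rule summed to 2854, 4610 and 2895 CPM in the same order. *FEZF2* *RSPO3* cells had layer 6 marker cells as 3.31% of their nearest neighbours, beside 3.24% of all cells and 1.28% for the other excitatory neurons. With each set alone the share was 5.31% beside 2.47% of cells in set 1 and 2.77% beside 3.83% in set 2.

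Receptor subunits and channels were among the genes that were higher. Of 25 glutamate and GABA receptor subunits measured, 11 were at least 2-fold higher and 2 lower, beside 6.49% and 2.64% of all genes, with a median log2 ratio of 0.88. Beside *GRIK3*, the metabotropic *GRM8* (14.4-fold, 3.22 in set 1 and 16.7 in set 2) and *GRM3* (6.69-fold) were higher. The kainate subunits *GRIK2* (4.04-fold) and *GRIK4* (3.90-fold), the AMPA subunits *GRIA2* (2.58-fold) and *GRIA3* (3.89-fold), the NMDA subunit *GRIN1* (2.64-fold) and the GABA-A subunit *GABRB2* (4.64-fold) were higher as well. *GRIA2* stood at 1168 and 1695 CPM against 477 and 671 CPM and was seen in 96.95% of the cells. *GRIA4* (0.31) and *GRIK1* (0.40) were lower. Of 19 potassium and calcium channel genes 9 were higher and 1 lower, and without the ribosome-poor cells 7 were higher. *CACNA2D3*, a calcium channel subunit, was 9.97-fold higher (4.98 in set 1 and 11.9 in set 2), *KCNQ5* 2.58-fold, and *KCND2* had a ratio of 0.47.

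The families of *CDH18* and *HS3ST4* did not all go with them. Of 16 other cadherins and protocadherins measured, 6 were higher and 2 lower, beside 6.49% and 2.64% of all genes. *PCDH9* stood at 586 and 835 CPM against 216 and 233 CPM (3.403-fold, 3.25 to 3.56), *CDH13* was 3.11-fold higher (1.65 in set 1), *CDH20* 4.42-fold, *PCDH17* 2.50-fold, *PCDH10* 2.28-fold and *PCDH19* 2.23-fold. *CDH4* (0.46) and *CDH7* (0.47) were lower. Of 13 other heparan sulfate enzymes, 2 were higher and 2 lower, beside the same shares of all genes. *HS3ST2*, a 3-O-sulfotransferase as *HS3ST4* is, stood at 58.1 and 105 CPM against 8.30 and 22.5 CPM (5.27-fold, 4.59 to 6.04), and the sulfatase *SULF2* was 5.88-fold higher. *HS6ST2* had a ratio of 0.38, and *NDST3* had 2 UMIs in the 656 cells.

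None of the 6 relatives of *FOXP2* and *TLE4* was 2-fold higher. *TLE3* (0.41) and *TLE2* (0.48, 11 UMIs) were lower, while *FOXP1* (0.90), *FOXP4* (0.97), *TLE1* (1.09) and *TLE5* (0.88) lay near 1. Of all genes 6.49% were 2-fold higher and 2.64% lower, so none higher among 6 is near that share. The 2 lower among 6 lie above theirs, but *TLE2* rests on 11 UMIs. Neither count is read as a result about the families.

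Guidance genes were found on both sides. Of 29 axon guidance and projection genes, 10 were higher and 7 lower, beside 6.49% and 2.64% of all genes, and the median log2 ratio was 0.08. Without the ribosome-poor cells 7 were higher and 7 lower, beside 5.27% and 2.77% of all genes, and the median was -0.022. *SLIT3* (10.4-fold, 7.62 to 14.1) and *SLIT1* (3.71-fold), secreted ligands of the Robo receptors, and *ROBO1* itself (2.15-fold) were higher, as were *SEMA5A* (4.31-fold), *EPHA7* (3.396-fold, 1.88 in set 1) and *EFNA5* (2.76-fold). *ROBO1* was 1.52-fold higher in set 1 and, without the ribosome-poor cells, 1.92-fold. The semaphorin receptors *NRP1* (0.31) and *PLXNA4* (0.42), the netrin receptors *UNC5C* (0.35) and *UNC5D* (0.49) and *NTNG2* (0.34) were lower, with *SEMA3C* and *EPHA3*.

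Genes that follow the age of a neuron were counted in the same way. Of 8 genes of migrating or young neurons 5 were at least 2-fold lower, beside 2.64% of all genes, and none was higher (median log2 ratio -1.35). The lower ones included *UNC5D*, *SLC17A6*, *NRP1* and *SEMA3C*, which are also on other lists. Of 15 genes of maturing neurons 2 were higher, *GRIA2* and the neurofilament *NEFL* (2.91-fold). Young neuron genes summed to 496 CPM, against 1054 CPM in the neuronal other excitatory neurons and 206 CPM in the *FEZF2* *RSPO3* cells. Maturing genes summed to 13797, 11730 and 15007 CPM, so neither trait is particular to the layer 6 marker cells. Of 7 neuropeptide genes other than *NTS*, *CCK* was higher (3.69-fold, 3.62 in set 1 and 4.01 in set 2), and so was *NPY*, although in set 2 only (0.61 in set 1 and 5.57 in set 2). Among subplate genes *NXPH4* was 2.92-fold higher, *CCN2* had a ratio of 0.31, and 4 of 6 lay within 2-fold. *RELN*, of the Cajal-Retzius list, was 2.25-fold higher (4.40 in set 1 and 1.48 in set 2). Of 14 BMP and SHH pathway genes, the signals with which the study was concerned, none was 2-fold higher and 1 was lower, *ID4* (0.44). The shares over all genes were 6.49% and 2.64%, so these counts are not read as a result about the pathways.

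Markers of other cell types were measured in the neuronal cells as well. RG and cycling genes had median log2 ratios of -0.19 and -0.22, which follow from the choice of cells, since cells rich in them had been removed on both sides. Before that, 7 of 9 RG and 6 of 6 cycling genes were 2-fold higher in all 752 cells, beside 10.2% of all genes. Of 3 intermediate progenitor genes 2 were lower in the neuronal cells, beside 2.64% of all genes. None of 3 interneuron genes measured was past 2-fold, but their median log2 ratio was 0.89, and the summed level of the interneuron list was 116 CPM in set 1 and 79.1 CPM in set 2 against 60.5 and 45.5 CPM. Their part in other results was not tested. Of 2 Cajal-Retzius genes *RELN* was past 2-fold, and so was 1 of 2 medial or hippocampal genes, *NR4A3*. Of 5 striatal or amygdalar genes 1 was lower (*MEIS2*, 0.49) and 4 lay within 2-fold. Microglial, glial lineage and thalamic genes had too few UMIs in these neurons to be measured.

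*NTS* was concentrated in few cells. Of the 656 neuronal layer 6 marker cells 121 had an *NTS* UMI (18.4%, 15.5 to 21.6%, median depth 4324 UMIs), against 1.55% of the other excitatory neurons (3376 UMIs), 2.27% of the interneuron marker cells and 1.81% of RG or cycling marker cells (4083 UMIs). Of the 175 other excitatory neurons with *NTS*, 146 had 1 UMI, but 19 had 5 or more and the highest had 273. Among the 121 cells, 50 had 1 UMI and 57 had 5 or more (14 in set 1 and 43 in set 2). These 57 cells held 97.6% of the 3765 *NTS* UMIs, and 1 cell had 259. In the RG or cycling marker cells 38 of 40 cells with *NTS* had 1 UMI, and none had more than 2.

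**Figure D5:**
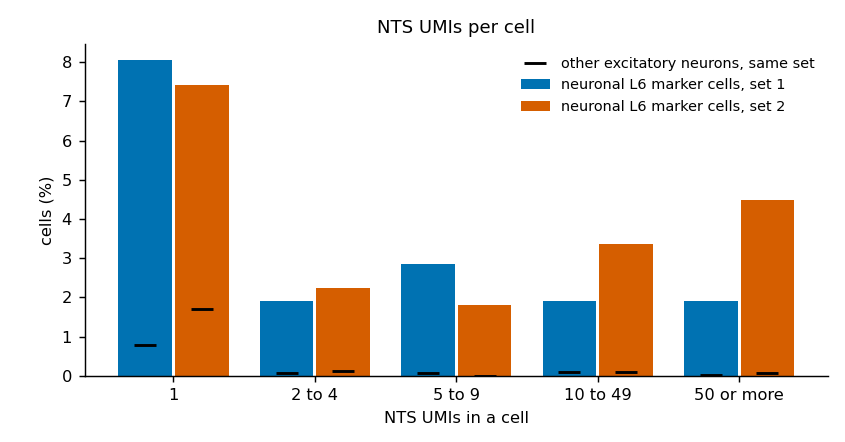
Share of neuronal layer 6 marker cells (bars, percent) by number of *NTS* UMIs in a cell and by barcode set, with the share of neuronal other excitatory neurons of the same set as black dashes; cells with 0 are not drawn. Cells with 50 or more UMIs make 1.90% of the layer 6 marker cells in set 1 and 4.49% in set 2, against 0.0203% and 0.0627% of the other excitatory neurons. The rule that chose the cells uses *NTS*, which fixes a part of the difference between bars and dashes.

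The 57 *NTS*-rich cells were set against the 535 neuronal layer 6 marker cells without *NTS*. Of 4645 genes with at least 100 UMIs, 38 were 2-fold higher and 158 lower over both sets together, and 17 (0.366%) were higher and 30 (0.646%) lower in each barcode set, of which set 1 held 14 *NTS*-rich cells. *GRIK2* stood at 1019 and 1853 CPM in sets 1 and 2, against 270 and 441 CPM (4.37-fold, 3.92 to 4.87). *PDZRN4*, an E3 ligase relative with a PDZ domain, stood at 90.5 and 208 CPM against 15.5 and 27.9 CPM (7.75-fold, 5.29 to 11.3). *LYPD1*, a modulator of nicotinic receptors, was 3.55-fold higher, *CRYM* 3.95-fold and *GRM8* 4.79-fold.

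Identity genes split within these cells. *FEZF2* was 1.81-fold higher (1.45 to 2.25) in the *NTS*-rich cells. *S100A10* (0.16) and the channel *TRPC5* (0.08) were lower, and *SEMA3E* had 0 UMIs in the 57 cells, against a UMI in 17.6% of the cells without *NTS*. *NR4A2* was 20.4-fold higher over both sets but had 0 UMIs in set 1, and *TSHZ2* was seen in 15.8% of the *NTS*-rich cells. *CDH18* was seen in 77.2% against 24.9% and *FOXP2* in 40.4% against 77.8%. The rule bears on both, since a cell with *NTS* needs only 2 of the other 5 genes.

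Differences also went with *HS3ST4*, *CDH18* and *FOXP2*, not all of them separate from those of *NTS*. Of 5058 genes, 16 (0.316%) were higher and 5 (0.0989%) lower in both sets in the 222 neuronal cells with *HS3ST4* than in the 434 without. The higher ones included *GALNT13*, a mucin-type glycosyltransferase (4.09-fold), *DPP10*, a subunit of A-type potassium channels (3.49-fold), *SULF2* (3.48-fold) and *PRKG1*, the cGMP-dependent kinase (2.78-fold). *RSPO3* (0.17) and *ERBB4* (0.36) were lower with *HS3ST4*. With *CDH18* (198 cells), 6 genes (0.119%) were higher and 12 (0.237%) lower in both sets, among them *GRIK2* (3.57-fold), *IGFBP4* (3.57-fold) and *KLHL1* (0.21). *NTS* itself was 25.1-fold higher with *CDH18*. *GRIK2*, *GRM8* and *PDZRN4* were higher and *TRPC5* lower in this contrast and in that of *NTS*, so the contrasts overlap. With *FOXP2*, 7 genes (0.138%) were higher and 3 (0.0593%) lower in both sets in 458 cells with it against 198 without. The contrasts differ in numbers of cells, and that of *NTS* asked for 5 or more UMIs, so these counts do not rank the genes.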

How the data were processed

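The deposited values are raw UMI counts that the authors gave for each gene in each cell, in 1 ferret and 1 mouse table. The submitters' processing notes name Cell Ranger, StringTie, Seurat 3 and build mm10, with no roles given. The Cell Ranger version and the ferret annotation are not given in the sources used here. Gene names are as in the ferret table, and 21910 of its 22008 were found in a RefSeq ferret gene table. No cell filter beyond 750 genes was used and doublets were not called.

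UMIs were summed over cells and barcode sets and scaled to CPM. A gene was counted as higher or lower past 2-fold among genes with at least 100 UMIs in both groups together, with 3 UMIs in place of 0. Shares were given exact Clopper-Pearson and ratios exact conditional binomial 95% intervals (python 3.11.15, numpy 2.4.6, scipy 1.17.1). Components and neighbours were calculated in numpy, and figures were drawn in matplotlib 3.10.9. Thinned shares are expectations at 1500 UMIs. Named genes are the 12 highest and 12 lowest ratios of CPM with 5 CPM added, past 2-fold in both sets, without identifiers, mitochondrial or ribosomal protein genes and the 9 genes of the rule, together with the gene lists. The same rule was applied to all and to the neuronal cells. The calculation was tested on simulated data.

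The members and lists were chosen with earlier results of these data known. The limits for vascular, RG, cycling and ribosome-poor cells and for 5 *NTS* UMIs were chosen after seeing the data. *CDH10*, *HS3ST3B1*, *HS6ST3*, *NDST4*, *VIP*, *GABRG3*, *SCN2A*, *BMP7*, *CTGF*, *ST18*, *TUBB3*, *C1QB* and mouse *Nts* were not analysed here. Some named genes and list members, which stay in the counts of their lists, are not reported here.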

Additional observations from a re-analysis of the deposited data

Results flagged for a closer look

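The mouse table was not part of any comparison, and a few of its cells met the same requirements. With *Zfpm2*, *Tle4*, *Foxp2*, *Hs3st4* and *Cdh18*, 17 of 17765 mouse cells with at least 750 genes had at least 3 of the 5 genes and none of the barred ones (0.0957%, exact Clopper-Pearson 95% interval 0.0558 to 0.153%). With the same 5 genes, 700 of 23241 ferret cells met them (3.01%, 2.80 to 3.24%). *Foxp2* alone was seen in 15.3% of mouse and 9.23% of ferret cells, whereas *Zfpm2* was seen in 2.67% and 14.4%, *Hs3st4* in 0.0732% and 1.79% and *Cdh18* in 0.191% and 1.98%. The mouse cells are those of the wild type and the *Smo* CKO sample together. Species, age, sort and this mix of genotypes differ between the tables and cannot be told apart.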

How the results depend on the processing

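The number of cells followed the rule: 2291 cells had at least 2 of the 6 genes and 240 at least 4, and at least 3 of the other 5 genes were found in 272 cells without *ZFPM2*, 248 without *TLE4* and 401 without *FOXP2* on the list. With at least 2 excitatory genes 431 cells were left. Alternatives by cell class were chosen after seeing the data. Against 1290 higher and 193 lower genes for all 752 cells, there were 713 higher genes in barcode set 1 alone, 804 higher and 327 lower without vascular, RG or cycling cells, 650 and 342 without the ribosome-poor cells as well, and 806 higher with at least 2 excitatory genes. There were 503 lower genes with at least 4 of the 6, 2523 higher and 397 lower at a limit of 20 UMIs, and 2522 and 563 at 1.5-fold. Log2 ratios that turned in sign without vascular, RG or cycling cells, and without ribosome-poor cells as well, were those of *SPARC* (-0.23 and -0.27), *APOA1* (-0.26 and -0.55), *GNG11* (-1.24 and -1.12), *LYZ* (-1.04 and -0.92) and *CUNH1orf54* (-0.20 and -0.081). In 1 of these settings those of *CLDN5* (-0.059), *LAMA4* (-0.081) and *EMB* (-0.52) turned. Over the genes measured in all 752 cells, so did the list medians of RG (-0.19 and -0.20), cycling (-0.34 and -0.39) and hippocampal (-0.021) genes. Over 77 genes, 847 alternative values gave 478 within the counting interval, 356 outside it in the same direction and 13 reversed. Held-out ratios were, for all cells, 20.6 for *NTS*, 19.005 for *ZFPM2*, 9.10 for *TLE4*, 9.49 for *FOXP2*, 24.2 for *HS3ST4* and 35.4 for *CDH18*. With at least 2 of the other 5 they were 15.5, 12.01, 6.12, 7.36, 18.6 and 19.8. In set 1 alone *NTS* had 3.75, *ZFPM2* 14.97, *FOXP2* 6.70, *HS3ST4* 11.9 and *CDH18* 16.7, and in set 2 *NTS* had 30.05, *FOXP2* 11.4, *HS3ST4* 34.0 and *CDH18* 42.7. In neuronal cells *NTS* had 24.8, *ZFPM2* 20.2, *TLE4* 9.77 and *CDH18* 43.4, and without ribosome-poor cells *NTS* had 23.6, *TLE4* 9.59 and *FOXP2* 8.49. Neighbours that met the rule were 43.8% with 15 components and 32.9% and 51.6% in the sets alone. The causes were not tested. No paired analysis was possible because the barcode sets cannot be tied to the replicate numbers and no result comes from a test. At 1 embryo, counts limit genes of few UMIs such as *NTSR1* and *SYT6*.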

Other observations

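*NTS*-rich cells were also found outside the rule. Of all ferret cells with at least 750 genes, 92 had 5 or more *NTS* UMIs. The rule took 57 of them and barred 11, and 25 had none or 1 of the other 5 genes, 1 of which is also among the 11. Among neuronal other excitatory neurons 19 had 5 or more, and 1 of them had 273 *NTS* UMIs, the most of any cell.

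The share of layer 6 marker cells changed with depth, and below 4000 UMIs it did so in a different way in the barcode sets. Of set 2 cells under 2000 UMIs, 106 of 1538 met the rule (6.89%, exact Clopper-Pearson 95% interval 5.68 to 8.27%), against 30 of 2796 in set 1 (1.07%, 0.725 to 1.53%). Between 2000 and 4000 UMIs the shares were 1.09% in set 2 and 2.28% in set 1. From 4000 to 8000 UMIs they were 5.14% and 4.31%, and at 8000 or more 8.86% and 15.6%, the highest in both sets. Neuronal cells alone made 7.18% of set 2 and 6.38% of set 1 at 8000 or more UMIs. Shares of cells of unlike depth are thus not like for like. Of all 866 ferret cells under 7% ribosomal protein UMIs, 147 met the rule (17.0%, 14.5 to 19.6%).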
